A study of Mus musculus with 4 samples.

Results

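Cytoplasmic ribosomal proteins are the protein subunits of the ribosome. They were measured by 49 probe sets of 35 genes, out of 12422 probe sets that were not manufacturer's controls. Each probe set consists of several short probes. Members were all probe sets that the platform annotation pairs with a single symbol of the Rpl, Rplp or Rps series or with Rpsa, leaving out the S6 kinases. That rule uses no measured value. By symbol, 21 probe sets (16 genes) belong to the large subunit, 27 (18 genes) to the small subunit and 1 to the stalk of the large subunit. A further 9 probe sets are paired with several symbols of the family, often a gene and its pseudogene, and were not named.

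Male mice of 12 months gave RNA of the left hippocampus, read on 2 arrays of APPSw mice (Tg2576) and 2 arrays of nontransgenic controls (C57B6/SJL). APPSw mice overexpress amyloid precursor protein carrying the Swedish mutation, in this line under hamster prion protein regulatory sequence, and are used as a model of amyloid deposition. The labels describe a mouse for each array without stating that these were separate animals, so the p-values cover only the spread among these arrays, and that spread may be technical. The values are linear MAS 5.0 signals that the authors scaled to a target of 2500, and a difference is in log2, APPSw minus control.

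A ribosome joins a small subunit, which holds and decodes the messenger RNA, to a large subunit, which forms the peptide bond, and each subunit is ribosomal RNA packed with ribosomal proteins. The mRNAs of these proteins typically begin with a run of pyrimidines, the terminal oligopyrimidine tract, through which the mTOR kinase and the RNA-binding protein LARP1 adjust their translation together. In neurons, ribosomes also work in dendrites and axons, where local protein synthesis takes part in synaptic plasticity. Mammalian genomes carry many processed pseudogenes of ribosomal protein genes, and near-identical copies can share probes.

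The RefSeq gene table (GRCm38.p6) held all 35 genes under the same symbols. It lists 34 of them as protein-coding, out of 91 protein-coding genes whose symbols follow the same rule. It lists Rps4l as a transcribed pseudogene. It also holds 312 pseudogenes with such symbols, and 24 of the 35 genes have at least 1 pseudogene named after them, up to 14 for Rpl7a, 13 for Rps19 and 12 for Rpl19. The signals therefore belong to each probe set's sequence and may include near-identical copies.

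Sequence around the annotated transcription start was available in the RefSeq promoter table for 28 of the 35 genes. The feature sought was a run of at least 8 pyrimidines that included the first transcribed base. Only C or T counted, on the strand that reads as the mRNA. Such a run was found in 7 of the 28 genes (25%), against 1240 of the 27025 genes of the table (4.59%). These 7 are shown because the start tract is the sequence feature by which the family's mRNAs are known. Each line gives 15 bases before and 15 bases from the start, 5′ to 3′, with the part of the pyrimidine run that lies in the window in capitals.
Rpl35a: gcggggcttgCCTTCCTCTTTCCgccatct
Rpl38: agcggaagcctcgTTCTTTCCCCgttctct
Rpl7a: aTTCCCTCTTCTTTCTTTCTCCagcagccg
Rps10: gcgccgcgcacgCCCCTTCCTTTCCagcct
Rps18: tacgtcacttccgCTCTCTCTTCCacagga
Rps24: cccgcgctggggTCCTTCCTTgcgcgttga
Rps27: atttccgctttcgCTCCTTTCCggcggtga
In GRCm38.p6 the windows lie at chr16:33056467-33056496 (+ strand) for Rpl35a, chr11:114668565-114668594 (+ strand) for Rpl38, chr2:26910792-26910821 (+ strand) for Rpl7a and chr17:27635230-27635259 (- strand) for Rps10. Those of Rps18, Rps24 and Rps27 lie at chr17:33955651-33955680 (- strand), chr14:24490663-24490692 (+ strand) and chr3:90213634-90213663 (- strand). Each run crosses the annotated start, so only part of it is transcribed from there. From the start on, the run had 10 bases in Rps10, 9 in Rps18, 8 in Rpl35a and Rpl38, 7 in Rpl7a and Rps27, and 6 in Rps24. In Rpl7a, 14 of the 21 bases lie before the start. The other 21 genes had no such run at a start that the table lists, which says only that these letters are not at that position.

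No ribosomal protein probe set passed the test between APPSw and control hippocampus. Probe sets with a mean log2 signal under the 40th percentile of all probe sets, a signal of 565, were left out of the test, which kept 30 member probe sets of 25 genes. By limma with Benjamini-Hochberg adjustment over the 7453 kept probe sets, 0 of the 30 had an adjusted p under 0.05, as had 0 of all 7453 (0% called), and the lowest adjusted p among the members was 0.599. An unadjusted p under 0.05 was reached by 2 of 30 members, against 600 of all 7453 probe sets (8.05%), a share near the background. Of the 2, Rpl13a was higher in APPSw mice, against 4.72% of all kept probe sets, and Rps13 was lower, against 3.33%. The Rps13 probe set passed the filter through the controls alone, since both APPSw arrays lay under 565, so its count supports nothing. With 2 arrays in each group, the smallest two-sided p of an exact permutation test is 0.333.

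Differences among the kept members were small and mostly above 0. The median log2 difference was 0.11 (quartiles 0.018 and 0.20), against a median of 0.018 (quartiles -0.17 and 0.21) over all kept probe sets. The difference lay above 0 for 24 of the 30 members, against 52.7% of all kept probe sets. Both APPSw arrays lay above both controls for 6 members, against 22.2% of all kept probe sets, and below both controls for 1 member, against 19.0%. The groups did not overlap for 7 of the 30 members in all, against 41.2% of all kept probe sets. Of these 7, 92856_at of Rpl22 passed the filter through the APPSw arrays and Rps13 through the controls. Their places in these counts support nothing.

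**Figure D1:**
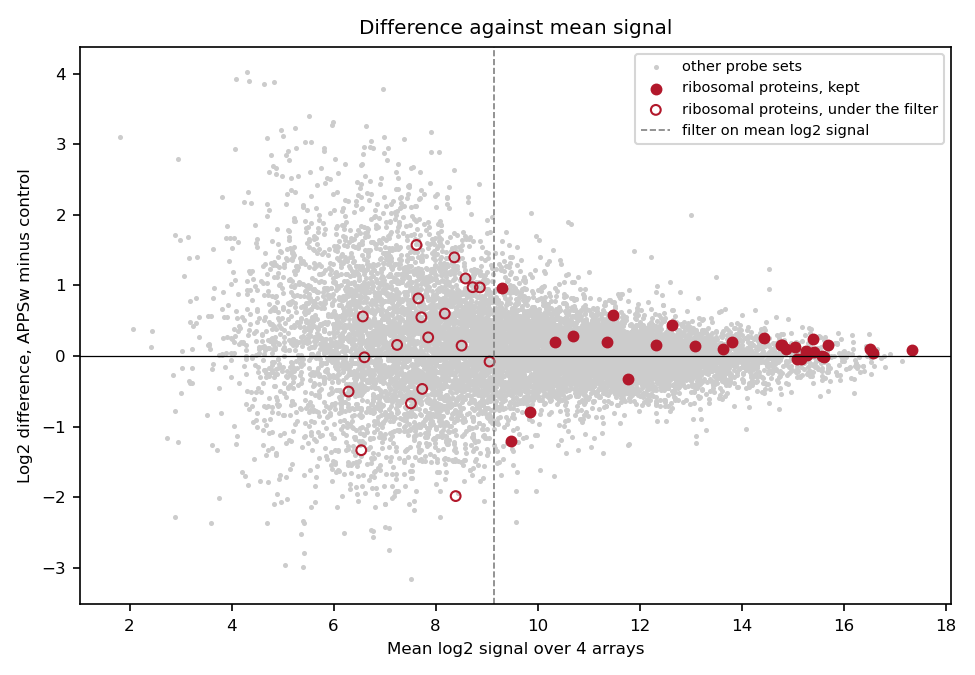
Log2 difference (APPSw minus control) against the mean log2 signal over the 4 arrays, for each of the 12422 probe sets. Filled red points are the 30 kept ribosomal protein probe sets, open red circles the 19 under the filter (dashed line), and grey points all others. The 19 members with a mean signal over 10000 lie between -0.045 and 0.25, while those under the filter spread from -1.98 to 1.57.

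The arrays of a group differed from each other by about as much as the groups did, with a median of -0.13 for APPSw 1 minus APPSw 2 and 0.13 for control 1 minus control 2. Set against each probe set's mean over the 4 arrays, the median of the 30 kept members was 0.0057 in APPSw 1, 0.090 in APPSw 2, 0.030 in control 1 and -0.068 in control 2. Of the 30 members, 23 were brighter in APPSw 2 than in APPSw 1 (76.7%, against 50.1% of all kept probe sets), and 22 were brighter in control 1 than in control 2 (73.3%, against 49.0%). The median difference was 0.025 without control 2 and 0.040 without APPSw 2, against 0.11 with all arrays. Over all kept probe sets the medians of these 2 fits were 0.020 and 0.020. The members' median was 0.133 without control 1 and 0.129 without APPSw 1, against 0.016 and 0.024 over all kept probe sets. For 29 of the 30 kept members, leaving out at least 1 array changed the difference by over 1.5 times or turned its sign. The exception, Rps13, fell under the filter without control 1. The same count over all kept probe sets was not made. Small differences between groups of 2 arrays meet this rule easily, so the count is not a trait of the family.

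**Figure D2:**
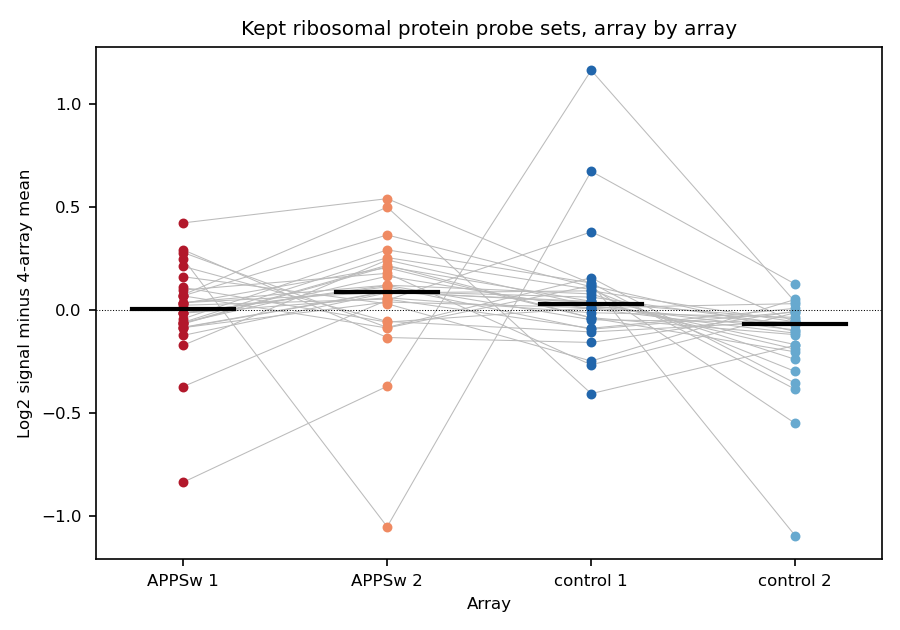
Log2 signal minus the 4-array mean of the same probe set, for the 30 kept ribosomal protein probe sets on APPSw 1, APPSw 2, control 1 and control 2. Grey lines join the values of a probe set and black bars are medians, which lie at 0.0057, 0.090, 0.030 and -0.068 in that order.

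The median signal of all probe sets was 1033 and 1013 on the APPSw arrays, against 926 and 988 on the control arrays. Markers of hippocampal principal neurons had kept probe sets for 10 of 11 listed genes, and 9 of their 11 kept probe sets lay below 0. The sums here and below are over all probe sets of a list, including those under the filter. For these neurons, with 14 probe sets, they were 51652 to 64906 in APPSw mice and 72571 to 76568 in controls. Of 12 kept oligodendrocyte probe sets 11 lay below 0. The sums over all 14 probe sets of that list were 131850 and 112623 in APPSw mice, against 137870 and 146665 in controls. All 6 kept probe sets of meninges and fibroblasts lay above 0. The sums over all 11 probe sets of that list were 29273 and 26336 in APPSw mice, against 17915 and 23113 in controls. The kept erythrocyte probe set, of the globin gene Hba-a1, had 11324 and 19525 in APPSw mice, against 8678 and 10811 in controls, and was highest in APPSw 2. Of 8 kept microglial probe sets 6 lay above 0. The sums over all 10 probe sets of that list were 31215 and 31150.4 in APPSw mice, against 35640.2 and 30982 in controls. Above 0 were also 3 of 8 astrocyte and 2 of 4 endothelial probe sets. The part of these cells in the ribosomal protein values was not tested. In bulk tissue, fewer cells of a type and less RNA per cell cannot be told apart. APPSw 1 stood apart by markers of the choroid plexus, the tissue that makes cerebrospinal fluid. All 6 of that list's kept probe sets were brightest there, and 8 of its 14 listed genes had a probe set. The sum over all 11 probe sets was 141130 in APPSw 1 and 18099 in APPSw 2, against 24799.6 and 15509.7 in controls. Ttr alone gave 83384 of the sum in APPSw 1. The ribosomal protein median was 0.129 without APPSw 1 and 0.040 without APPSw 2, against 0.024 and 0.020 over all kept probe sets. The 3′ over 5′ signal ratio of the manufacturer's Gapdh controls was 0.925 and 0.831 in APPSw mice, against 0.908 and 0.858 in controls. That of beta-actin was 1.25 and 1.27 in APPSw mice, against 1.34 and 1.17 in controls. The mouse App probe set had signals of 96435 and 83384 in APPSw mice, against 84901 and 94877 in controls. The position of its probes relative to the transgene is unknown here, so this signal does not check the labels.

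Among the 13 kept probe sets of the large subunit, 9 lay above 0 and 4 below, with a median of 0.16. Both APPSw arrays lay above both controls for 4 of them, against 22.2% of all kept probe sets, and below for 0, against 19.0%. The 4 were those of Rpl13a, Rpl22, Rpl41 and Rpl8. That of Rpl22 passed the filter through the APPSw arrays, so its place among the 4 supports nothing. Rpl13a, a large subunit protein that can also leave the ribosome to silence inflammatory mRNAs in the GAIT complex, had signals of 3002 and 4032 in APPSw mice, against 2153 and 2533 in controls. The groups did not overlap, and APPSw 2 was the highest. The log2 difference was 0.58 (SE 0.22, adjusted p = 0.61), and the unadjusted p of 0.0414 was 1 of the 2 under 0.05 in the family.

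Rpl8, which lies beside the catalytic centre of the large subunit, had signals of 44361 and 50030.4 in APPSw mice, against 42255 and 37695 in controls. The groups did not overlap, and the gap between APPSw 1 and control 1 was small. The difference was 0.24 (SE 0.18, adjusted p = 0.717), with a 95% interval of -0.21 to 0.69.

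Rpl41, the smallest protein of the ribosome, had signals of 168354 and 171861 in APPSw mice, against 155796 and 166624 in controls. The groups did not overlap, but APPSw 1 was close to control 2. The difference was 0.078 (SE 0.17, adjusted p = 0.91) with an interval of -0.34 to 0.50, and it turned to -0.023 after quantile normalization.

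Rpl22, an RNA-binding subunit needed for normal T cell development, was read by 2 kept probe sets. By probe set 92856_at the signals were 843 and 914 in APPSw mice, against 687 and 294 in controls, and control 2 was far below the rest. This probe set passed the filter through the APPSw arrays, since the geometric mean of the controls was 449.6, and it fell under the filter without APPSw 2. By 92857_at they were 2716 and 3632 in APPSw mice, against 4569 and 3372 in controls, with control 1 the highest and APPSw 1 the lowest. The differences were 0.97 (SE 0.40, adjusted p = 0.612) and -0.32 (SE 0.24, adjusted p = 0.718). The first was 0.353 without control 2 and 1.58 without control 1.

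Rpl10a, which forms the mobile L1 stalk where spent transfer RNA leaves, had signals of 13857 and 17232 in APPSw mice, against 15472 and 11746 in controls by 100711_at. Its other probe set, 161327_f_at, had 6658 and 8169 in APPSw mice, against 6862 and 4333 in controls. Control 2 was the lowest and APPSw 2 the highest by both, and the groups overlapped. The differences were 0.20 (SE 0.22) and 0.44 (SE 0.27), and the first was -0.0018 without control 2.

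Rpl7a, a large subunit protein whose start window is shown above, had signals of 21729 and 27399.9 in APPSw mice, against 24508 and 17143 in controls. Control 1 lay between the APPSw arrays, and control 2 was the lowest. The difference of 0.25 (SE 0.25) was -0.0064 without control 2. Rpl37a, a zinc-binding subunit, had 34151 and 25425 in APPSw mice, against 25004 and 27775 in controls, a difference of 0.16 (SE 0.21) that was -0.052 without APPSw 1.

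Rpl6 had signals of 32197 and 37144 in APPSw mice, against 37403 and 33694 in controls, and each group had a higher and a lower array. Its difference was -0.038 (SE 0.18). Rpl7 had 28809.5 and 33693 in APPSw mice, against 30190.4 and 27817 in controls by its kept probe set, a difference of 0.10 (SE 0.18). Rpl19, which forms a bridge to the small subunit, had 52834 and 47422 in APPSw mice, against 54671 and 46871 in controls by 97483_at, a difference of -0.016 (SE 0.18). The sign of each of these 3 differences changed when single arrays were left out. The 95% interval for the 8 large subunit probe sets with a mean signal over 10000 lay within -0.49 to 0.86, so these arrays leave changes of that size undetermined.

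Of the stalk, which recruits the translation factors that drive elongation, Rplp0 was the member measured by a probe set with a single symbol. Rplp0, the scaffold that carries the other stalk proteins, had signals of 34707 and 35943 in APPSw mice, against 34849.5 and 30139 in controls, a mean of 35325 ± 874 in APPSw mice and 32494 ± 3331 in controls (SD, n = 2 each). Control 2 was the lowest and the other control lay between the APPSw arrays. The difference was 0.12 (SE 0.18, adjusted p = 0.856), with an interval of -0.32 to 0.56, and it was 0.019 without control 2. Rplp1, Rplp2, Rps6, Rps27a, Rpl5, Rpl11 and Rpl23 were not analysed here.

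Among the 16 kept probe sets of the small subunit, 14 lay above 0 and 2 below, with a median of 0.10. Both APPSw arrays lay above both controls for 2 of them, which are of Rps28, against 22.2% of all kept probe sets. Both lay below for 1, that of Rps13, against 19.0%. The Rps13 probe set passed the filter through the controls alone, so that count supports nothing. The difference was under 0.25 in size for 14 of the 16, against 61.1% of all kept probe sets.

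Rps13, which forms a bridge to the large subunit, had the largest difference among the kept members. Its signals were 400.0 and 552 in APPSw mice, against 1599 and 733 in controls. Both APPSw arrays were below both controls and under the filter's signal of 565, and control 1 was well above the other control. The difference was -1.20 (SE 0.40, adjusted p = 0.599) with an unadjusted p of 0.0244, and it was -1.77 without control 2 and -0.97 without APPSw 1. Without control 1 the probe set fell under the filter. The suffix _r marks a probe set for which some of the manufacturer's rules for choosing probes were dropped.

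Rps28, a small subunit protein at the exit of the messenger RNA channel, was read by 3 kept probe sets that agreed in sign. The signals were 50492 and 61405 in APPSw mice, against 51464 and 48607 in controls by 100758_at. By 98085_f_at they were 93430.2 and 102606 in APPSw mice, against 91412 and 90594 in controls. By 98086_r_at they were 1763 and 1865 in APPSw mice, against 1371 and 1634 in controls. APPSw 2 was the highest array by all 3, and the groups overlapped by the first alone. The differences were 0.15 (SE 0.19), 0.11 (SE 0.17) and 0.28 (SE 0.18), with adjusted p of 0.823, 0.872 and 0.679 by limma, and the first was 0.014 without APPSw 2. The platform annotation gives the last 2 probe sets the same source sequence, so they are not independent readings.

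Rps29, a zinc-binding subunit beside the decoding site, had signals of 1454 and 1327 in APPSw mice, against 1095 and 1347 in controls by its kept probe set, a difference of 0.19 (SE 0.19). The control 2 array lay between the APPSw arrays. Rps27, another zinc-binding subunit, had 5977 and 4967 in APPSw mice, against 4794 and 4969.8 in controls, a difference of 0.16 (SE 0.18) that was 0.025 without APPSw 1. Rps10, whose gene is mutated in some patients with Diamond-Blackfan anaemia, had 29209.8 and 30963 in APPSw mice, against 30071 and 24125 in controls. Control 2 was the lowest array there and the others were close together, which gave 0.16 (SE 0.19), and 0.00013 without control 2.

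Rps19, needed to mature the small subunit and the gene most often mutated in Diamond-Blackfan anaemia, had signals of 8306 and 10072 in APPSw mice, against 8959 and 7628 in controls. APPSw 2 was the highest and control 2 the lowest, while APPSw 1 lay between the controls. The difference was 0.15 (SE 0.20, adjusted p = 0.844), and it was 0.0068 without APPSw 2 and 0.030 without control 2. Rpsa, which is also known as the laminin receptor, had 12567 and 13719 in APPSw mice, against 11895 and 12604 in controls. Control 2 exceeded APPSw 1 by a small margin, and the difference was 0.10 (SE 0.17, adjusted p = 0.881).

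Rps3, at the entry of the messenger RNA channel and also a DNA repair factor, had signals of 34646 and 37766 in APPSw mice, against 37056 and 37559 in controls, a mean of 36206 ± 2206 in APPSw mice and 37308 ± 356 in controls (SD, n = 2 each). APPSw 1 was slightly lower than the other arrays, which were almost equal, a difference of -0.045 (SE 0.17, adjusted p = 0.951) with an interval of -0.47 to 0.38. Rps7, which also binds the p53 regulator Mdm2, had 35145 and 46821 in APPSw mice, against 40153 and 37005 in controls, where APPSw 2 was the highest and APPSw 1 the lowest array. Its difference was 0.074 (SE 0.21), and -0.13 without APPSw 2.

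Rps18, Rps3a1 and the kept probe set of Rps4x had the smallest differences of the small subunit beside Rps3 and Rps24. Rps18, of the head of the subunit, had signals of 47516 and 42292 in APPSw mice, against 44349.9 and 42116 in controls. Rps3a1 had 46343 and 52256 in APPSw mice, against 50453 and 47745 in controls. Rps4x, encoded on the X chromosome, had 37667 and 42486 in APPSw mice, against 41682 and 37940.3 in controls. In each the APPSw arrays lay on both sides of a control, and the differences were 0.053 (SE 0.17), 0.0038 (SE 0.17) and 0.0086 (SE 0.18). The sign of all 3 changed when single arrays were left out.

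**Figure D3:**
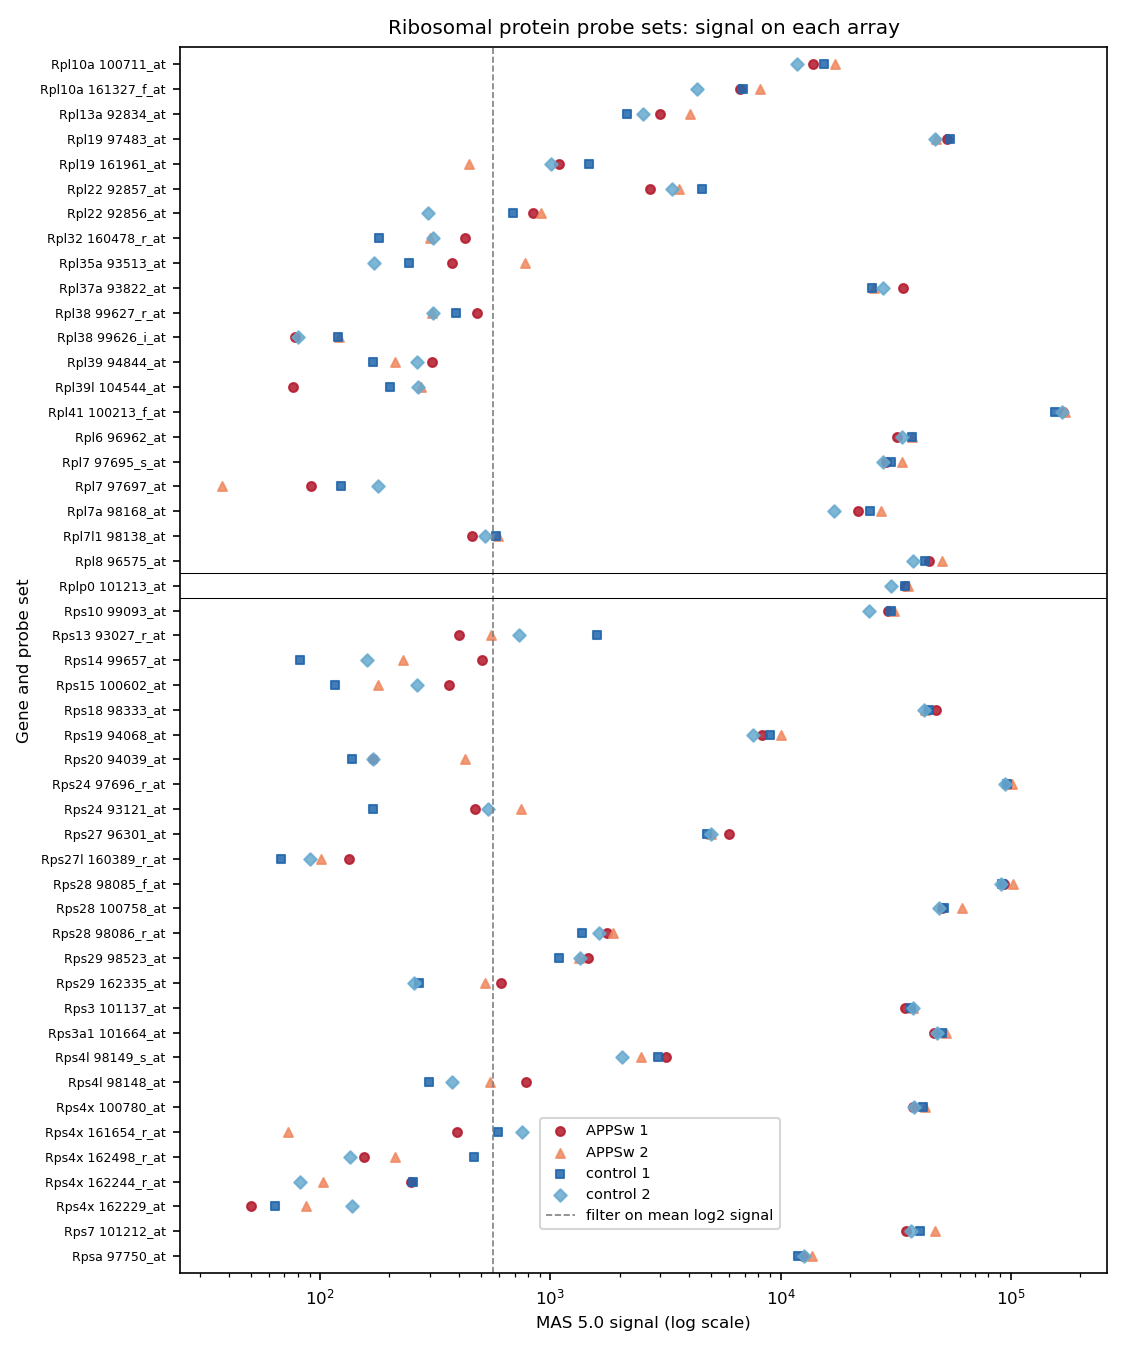
MAS 5.0 signal on a log axis for each of the 49 ribosomal protein probe sets on APPSw 1, APPSw 2, control 1 and control 2, with the filter's signal of 565 as a dashed line. Rows are ordered by subunit (large, stalk, small) and gene, and levels of different probe sets cannot be compared because probes differ in response. The 19 probe sets with a mean over 10000 show points close together, and those under the filter show the arrays spread apart.

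Differences were smaller in members of high signal. The 19 members with a mean signal over 10000 had differences from -0.045 to 0.25, a median of 0.10 and a median size of 0.10, against a median of -0.023 and a median size of 0.14 over the 886 kept probe sets above the same signal. Of these 19, 16 lay above 0, against 44.2% of the 886, and 16 were brighter in APPSw 2 than in APPSw 1, against 53.8% of the 886. In the same 19, 15 were brighter in control 1 than in control 2, against 59.3% of the 886. The 11 other kept members had differences from -1.20 to 0.97, with a median size of 0.32.

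A further 19 member probe sets lay under the filter and were not tested. They left 10 of the 35 genes with no kept probe set, namely Rpl32, Rpl35a, Rpl38, Rpl39, Rpl39l, Rpl7l1, Rps14, Rps15, Rps20 and Rps27l. MAS 5.0's present and absent calls were not used here, so whether these signals exceed background is unknown. Their median difference was 0.26, with 12 above 0 and 7 below, against 0.21 and 61.6% above 0 over all 4969 probe sets under the filter. The APPSw arrays both exceeded the controls for 5 of the 19, against 25.8% of those 4969 probe sets, and both lay under the controls for 2, against 10.7%. That made 7 of 19 without overlap in either direction, against 36.5%. Raising all signals to at least 250 changed 12 of the 19 differences by over 1.5 times or in sign and left 4 of them at 0.

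Of these dim probe sets, that of Rps14, a small subunit gene whose loss marks the 5q- syndrome in humans, had signals of 505 and 229.8 in APPSw mice, against 82.1 and 159.9 in controls. The difference was 1.57, and the groups did not overlap. It was 0.51 with signals floored at 250, and 1 without APPSw 1 and 2.14 without APPSw 2. Rpl35a, a large subunit gene of the Diamond-Blackfan group, had 372 and 774 in APPSw mice, against 242 and 171 in controls, a difference of 1.40, or 1.10 with the floor and 0.87 without APPSw 2. APPSw 2 alone exceeded 565 there. Rps20 had 169 and 427 in APPSw mice, against 137 and 170.2 in controls, and its difference of 0.82 was 0.147 without APPSw 2. Rps15 had 364 and 179 in APPSw mice, against 116 and 263 in controls, where the groups overlapped, and its difference of 0.55 was -0.041 without control 1 and 0.035 without APPSw 1.

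Rpl32 had signals of 427 and 299 in APPSw mice, against 179.7 and 309 in controls, a difference of 0.60. Rpl38, which favours the translation of Hox mRNAs in the mouse embryo, had 482 and 306 in APPSw mice, against 387 and 310.5 in controls by 99627_r_at and 77.5 and 121 in APPSw mice, against 119.7 and 80.3 in controls by 99626_i_at. Neither its probe sets, with 0.15 and -0.019, nor that of Rpl39, a protein of the peptide exit tunnel with 0.26, separated the groups. The probe set of Rpl32 did not separate them either.

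Members that are relatives of standard subunits were dim with 1 exception. Rpl39l, a relative of Rpl39 used mainly in the testis, had signals of 76.4 and 276 in APPSw mice, against 202 and 265 in controls, where APPSw 1 alone was low, and the difference of -0.67 was 0.028 with the floor. Rpl7l1, a large subunit relative, had 455 and 592 in APPSw mice, against 578 and 520.2 in controls and no separation of the groups. This was the member nearest below the filter, with a difference of -0.079. Rps27l, a p53-responsive relative of Rps27, had 133 and 100.4 in APPSw mice, against 67.8 and 90.8 in controls, a difference of 0.56 with both APPSw arrays above both controls. All its signals lay under the floor of 250, with which the difference was 0, and it was 0.155 with a pseudocount of 250. Rps4l, the transcribed pseudogene, had 3181 and 2473 in APPSw mice, against 2922 and 2049 in controls by its kept probe set and 780.4 and 549 in APPSw mice, against 298 and 374 in controls by the other, differences of 0.20 and 0.97.

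Where a gene had several probe sets, the readings often disagreed. Of the 10 genes with more than 1 probe set, 7 had differences that spanned at least 0.5, and 4 had both signs. Rps4x spanned the most. Its kept probe set gave 0.0086, and the other 4, all under the filter, gave -1.98, -0.50, 0.16 and -0.47. The lowest, 161654_r_at, had signals of 394 and 72.7 in APPSw mice, against 593 and 756 in controls, and APPSw 2 was far below the other arrays. With the floor of 250 it gave -1.09.

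Rpl7 gave 0.10 by its kept probe set and -1.34 by 97697_at, whose signals were 91.7 and 37.6 in APPSw mice, against 123 and 179 in controls. With the floor of 250 the second was 0, and with the pseudocount -0.35, so this disagreement rests on signals under the floor. Rpl19 gave -0.016 and -0.80, the second from 161961_at with 1093 and 444 in APPSw mice, against 1466 and 1003 in controls, where APPSw 2 alone was low. Rps29 gave 0.19 by its kept probe set and 1.10 by 162335_at, with 612 and 518 in APPSw mice, against 269.7 and 257 in controls. For Rps29 both probe sets lay above 0, and the dim one had no overlap between the groups. Rpl10a, Rps28 and Rpl38 spanned less than 0.5.

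Rps24, of the small subunit, has a naming conflict as well. Probe set 97696_r_at, paired with Rps24, has the same source sequence in the annotation as 97695_s_at, which is paired with Rpl7. Its signals were 96204 and 101315 in APPSw mice, against 96349 and 94891 in controls, a difference of 0.046 (SE 0.17, adjusted p = 0.949). The other Rps24 probe set, 93121_at, had 472 and 747 in APPSw mice, against 169.5 and 539 in controls, a difference of 0.97. That was 0.14 without control 1 and 1.81 without control 2. Which gene 97696_r_at reads is not settled by the tables used here. Without it the family's median was 0.124 over 29 probe sets.

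**Figure D4:**
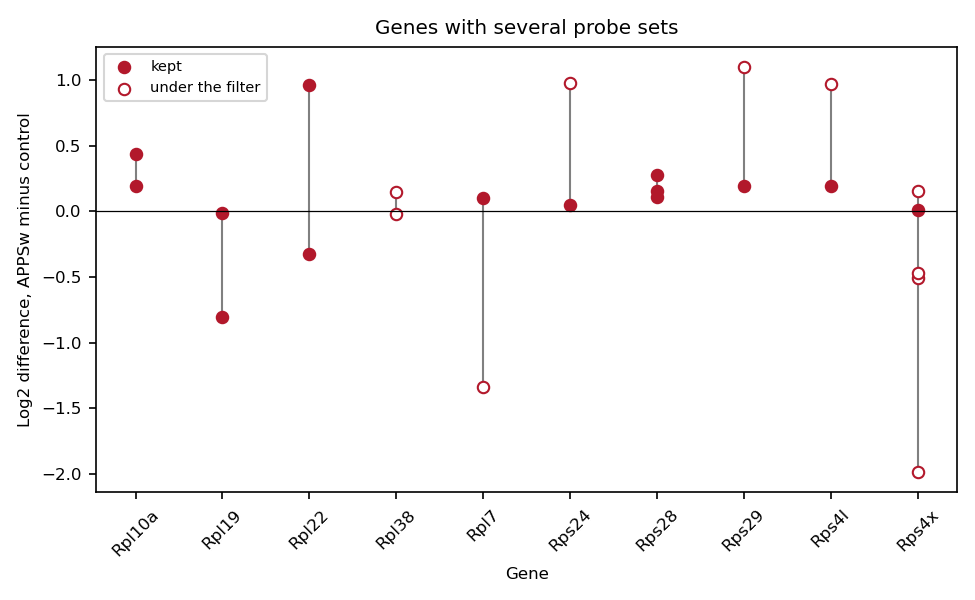
Log2 difference (APPSw minus control) of each probe set of the 10 ribosomal protein genes with more than 1 probe set. Filled points are kept probe sets and open points those under the filter. The points of Rps28 nearly coincide, while those of Rps4x run from -1.98 to 0.16.

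Other genes of ribosome production and its control were described from lists by their counts. For comparison, 52.7% of all 7453 kept probe sets lay above 0, with a median of 0.018. Of 64 kept probe sets of mitochondrial ribosomal proteins, which build the separate ribosome of mitochondria, 0 passed limma's adjusted threshold, 38 lay above 0 and 26 below, and the median was 0.091. In that list Mrpl48 had 2259 and 2979 in APPSw mice, against 1532 and 1354 in controls by 1 probe set, which gave 0.85 (SE 0.21), while its other probe set gave 0.18. Mrps18a gave -0.56, 0.42, 0.11 and -0.060 by 4 probe sets, so its readings disagreed too.

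Of 19 kept probe sets of other mRNAs with a start tract, 0 passed, 8 lay above 0 and 11 below, and the median was -0.14. Eef1b2, an exchange subunit of elongation factor 1, had 458 and 796 in APPSw mice, against 1927 and 1768 in controls, a difference of -1.61 (SE 0.29, adjusted p = 0.599), and 0.19 by a probe set under the filter. Eef2, the factor that moves the ribosome along the mRNA, had 26034 and 26698 in APPSw mice, against 33168 and 35723 in controls, a difference of -0.38 (SE 0.17, adjusted p = 0.612). For Eef2 and for the kept Eef1b2 probe set, named for the largest statistics of the list, both APPSw arrays lay below both controls. In the whole list this held for 7 of the 19 kept probe sets, against 19.0% of all kept probe sets. Both APPSw arrays lay above both controls for 6 of the 19, against 22.2%. The difference between these mRNAs and the ribosomal proteins was not tested.

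Of 45 kept probe sets of ribosome biogenesis genes, 0 passed, 24 lay above 0 and 21 below, with a median of 0.0086. Bop1, which processes the RNA of the large subunit, had 2199 and 2090.2 in APPSw mice, against 2955 and 2884 in controls, a difference of -0.45 (SE 0.17), and 0.31 by a dim probe set. Nsun2, an RNA methyltransferase, had 2852 and 3189 in APPSw mice, against 4333 and 4037 in controls by its probe set with the largest statistic, a difference of -0.47 (SE 0.17), and -0.065 and -0.25 by its other kept ones. Of 16 kept probe sets of mTOR and S6 kinase signalling, 0 passed, 10 lay above 0 and 6 below, with a median of 0.12. Tsc2, a brake on mTOR, had 5055 and 3445 in APPSw mice, against 6009 and 6550.5 in controls, a difference of -0.59 (SE 0.24), but -0.016 by its other kept probe set. Ppp2ca, the catalytic subunit of protein phosphatase 2A, had a difference of 0.47 (SE 0.29).

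**Figure D5:**
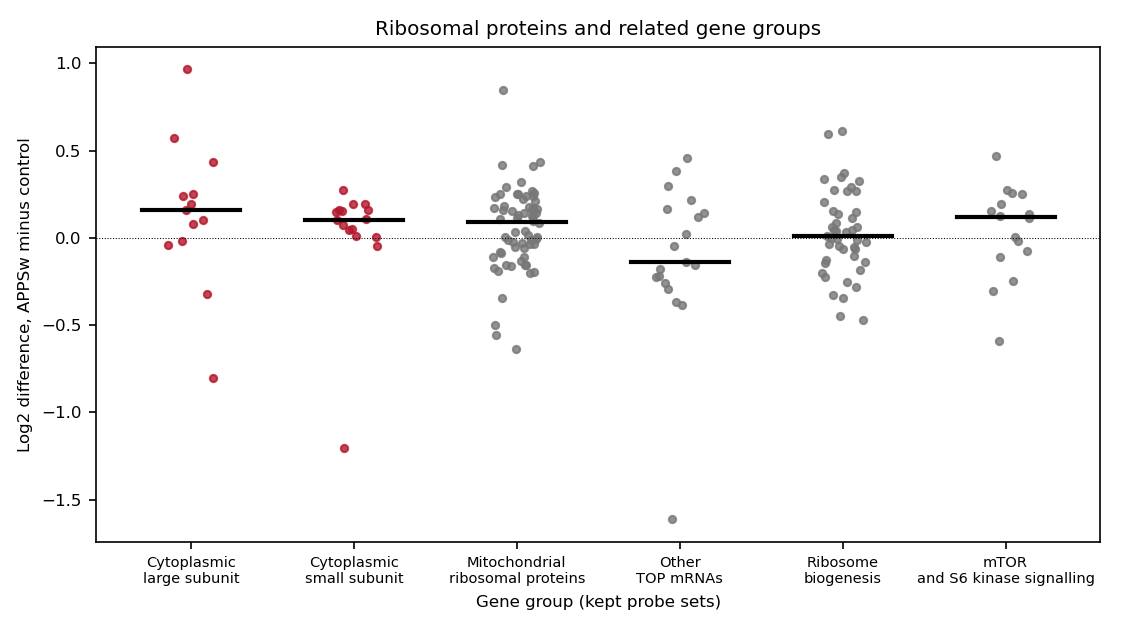
Log2 differences (APPSw minus control) of kept probe sets in the large and small cytoplasmic subunits (red) and in 4 related groups (grey), where TOP mRNAs are those with a start tract. Black bars are medians, at 0.16 and 0.10 for the subunits and at 0.091, -0.14, 0.0086 and 0.12 for the other groups from left to right. Every group has points on both sides of 0, with 9 of 13 large subunit and 14 of 16 small subunit points above it.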

How the data were processed

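RNA of the left hippocampus was hybridised to 4 Affymetrix arrays. Per the labels, the authors made signal intensities with MAS 5.0, scaled to 2500, and deposited them on a linear scale. After 66 control probe sets were left out, limma 3.58.1 (R 4.3.3) was fitted to log2 intensities (two-sided, adjusted over 7453 kept probe sets, threshold 0.05), with 2 residual and 3.70 prior degrees of freedom. The fit was tested on simulated data. The number of arrays limits the precision. Genes came from the platform annotation (10833 probe sets with 1 symbol, 396 with several, 1193 with none), sequences from RefSeq (GRCm38.p6). The members and lists were chosen with earlier results of these data known. Genes were named by rule: the 10 largest differences each way without group overlap, probe sets of a gene spanning at least 0.5, the 3 highest and 3 lowest signals, stalk and well known proteins, paralogs and pseudogenes, an unadjusted p under 0.05, and up to 2 genes a list by moderated statistic. Other members fall outside it and were named after their values were seen, so that every member is accounted for. Lists were described, not tested. The alternatives tried were quantile normalization, testing all probe sets, filtering at the 60th percentile, a pseudocount or floor of 250, an intensity trend, blocking on the replicate number, other choices of members and each array left out.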

Additional observations from a re-analysis of the deposited data

How the results depend on the processing

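No probe set of any kind passed limma's adjusted threshold under any alternative run. The lowest adjusted p over all probe sets ran from 0.148 without control 2 to 0.634 after quantile normalization, and 400 to 816 probe sets had an unadjusted p under 0.05. Among the ribosomal protein probe sets, with all 4 arrays, the count ran from 1 of 26 (filter at the 60th percentile) to 4 of 30 (replicate block). Over all probe sets the counts in these runs were 492 of 4969 and 559 of 7453. Fits without an array assume that its group's remaining array varies as the other group does. Over the arrays left out, the family's median difference ran from 0.0246 (without control 2) to 0.133 (without control 1). The medians over all kept probe sets in these runs were 0.0202 and 0.0164. Under the other alternatives the family's median ran from 0.0895, with the probe sets paired with several symbols added, to 0.146 with no filter. With no filter the median over all probe sets was 0.058. After quantile normalization the family's median was 0.126. Some of these alternatives were chosen after seeing the data. They add the probe sets paired with several symbols, restrict to signals over 10000, drop the disputed Rps24 probe set or take a gene's brightest probe set. Of the 30 kept members, 17 kept their sign in every alternative that tested them, 14 higher and 3 lower. Testing all probe sets, the 60th percentile filter, the intensity trend and the replicate block leave each difference unchanged. No sign could turn there. The 17 include Rps13 and an Rpl22 probe set, which each passed the filter through 1 group. Rps13 was not tested without control 1, nor that Rpl22 probe set without APPSw 2, so their places support nothing. The same count over all kept probe sets was not made. After quantile normalization Rpl41 was -0.0226 and 97483_at of Rpl19 0.0272. With an array left out, differences ran from -0.0018 to 0.396 for Rpl10a (100711_at), -0.0783 to 0.0954 for Rps4x, -0.107 to 0.0176 for Rps3, -0.133 to 0.281 for Rps7, -0.0828 to 0.0904 for Rps3a1, -0.0518 to 0.374 for Rpl37a, -0.141 to 0.0653 for Rpl6, -0.127 to 0.0948 for Rpl19, -0.00849 to 0.217 for Rpl7, -0.0591 to 0.453 for Rps4l, -0.00637 to 0.509 for Rpl7a and -0.0313 to 0.137 for Rps18. The cause was not tested. The labels give both groups the replicate numbers 1 and 2 without saying that a number pairs mice. Deviations of same-numbered arrays correlated at -0.020 across kept probe sets, and with the replicate block 0 probe sets passed limma (lowest adjusted p = 0.383). An unadjusted p under 0.05 was reached by 559 of 7453 probe sets with the block, against 600 without it. Of the 30 kept ribosomal protein probe sets, 4 reached it with the block, against 2 without.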

Other observations

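The manufacturer's control probe sets for 18S ribosomal RNA, the RNA of the small subunit, took no part in the comparisons. The 3′ probe set had signals of 2142 and 2320 in APPSw mice, against 1569 and 1358 in controls. The middle probe set had 672 and 820 in APPSw mice, against 156 and 546 in controls. The 5′ probe set had 242 and 623 in APPSw mice, against 262 and 46 in controls. Both APPSw arrays lay above both controls by the 3′ and middle probe sets, and the groups overlapped by the 5′ one. Both lay above for 22.2% of all kept probe sets and 25.8% of those under the filter. Both control signals of the middle probe set were under the filter's signal of 565. The manufacturer's 3′, middle and 5′ beta-actin probe sets also had both APPSw arrays above both controls, while those of Gapdh overlapped. Whether 18S RNA differed between the groups was not tested.

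The 9 probe sets paired with several symbols of the family add a view of genes that could not be named. Of the 8 that were kept, 4 lay above 0 and 4 below, with a median log2 difference of -0.00086. Of all kept probe sets 52.7% lay above 0. All 8 were brighter in APPSw 2 than in APPSw 1, against 50.1% of all kept probe sets. All 8 were brighter in control 1 than in control 2, against 49.0%.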
